A study of Homo sapiens with 10 samples.

Results

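The step at which H1 cells, a long-established human embryonic stem cell line, left Activin A and entered FGF4 with BMP2 was examined by comparing the RNA-seq library of day 5 with that of day 3. These are 2 of the 10 libraries of a course that runs from the undifferentiated cells of day 0 to hepatocyte-like cells at day 21, with 1 library per day and no replicate. Of the 12125 genes measured, the 8767 whose larger value on the 2 days was at least 50 were compared, and the other 3358 were not. The day 3 cells had received 100 ng per ml Activin A in RPMI medium with the B27 supplement lacking insulin, and the labels presume them to be definitive endoderm (DE). The day 5 cells came from 2 days into the next step, with 30 ng per ml FGF4 and 20 ng per ml BMP2 in RPMI with complete B27, which contains insulin, and their labels read early hepatoblast in one field and hepatoblast in another. Activin A was withdrawn, FGF4 and BMP2 were added, insulin was added and 2 more days passed, all between these libraries, so the parts of these steps in any difference cannot be told apart. Each library is the RNA of a whole culture of a single cell line, in which fewer cells of a type and less RNA per cell cannot be told apart.

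Activin A acts through the receptors and SMAD proteins that also serve Nodal, the signal that patterns endoderm in the embryo, and cells under this signal switch on its own secreted antagonists. BMP proteins act through another branch of SMAD proteins and typically induce the ID genes and inhibitors of their own pathway, whereas FGF acts largely through the ERK kinase cascade. In the embryo, BMP from neighbouring mesenchyme and FGF from the developing heart are known to turn foregut endoderm towards liver.

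The values are GC-normalized whole numbers on a scale that all libraries share, and not read counts. A gene's value therefore reflects its place among the genes of its library. The highest value, 18734, was held by 10 genes at day 3 and by 10 genes at day 5, and a gene at that value cannot go higher. Library totals lay between 2330948 and 2362740 over the 10 days by construction, so that the sequencing depth behind a value is unknown. Differences are given as day 5 minus day 3 of log2(value + 1), on which a difference of 2 is called 4-fold and a difference of 1 is called 2-fold. None of them could be tested, and no p-value is given. To gauge the spread between libraries, days 9 and 11 were compared in the same way, since both lie in medium with HGF and KGF.

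Between day 3 and day 5, 250 genes (2.85% of those compared) were at least 4-fold higher and 196 (2.24%) at least 4-fold lower. From day 9 to day 11, 9 of 8444 genes were higher (0.107%) and 9 lower (0.107%). At 2-fold the counts were 680 higher (7.76%) and 640 lower (7.3%), against 88 (1.04%) and 48 (0.568%) from day 9 to day 11. Days 9 and 11 were the least different of the pairs counted that share factors, and so are a low measure. Later in the FGF4 and BMP2 step, from day 5 to day 7, 197 genes were 4-fold higher and 117 lower, and from day 1 to day 2, within Activin A, 96 were higher and 25 lower. The switch thus held more 4-fold differences than any of these pairs. Days 1 and 2 lie only 1 day apart, whereas the other pairs, like the switch, span 2 days. Days 2 and 3 were not counted.

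The excess over days 9 and 11 was found at every level of the scale and was greatest among the highest genes. Where the larger value was between 50 and 99, 99% of genes differed by no more than 1.26 on the log2 scale between days 9 and 11, and 9.52% of the 2774 genes of this level differed by more between days 3 and 5. From 200 to below 500 the limit was 1.08, and 13.7% of 2167 genes passed it. For the 142 genes that reached the top levels of the scale, which begin at 2164, the limit was 1.21, and 40.1% passed it. That limit rests on only 111 genes of days 9 and 11. Steps between the top levels are wide, as between 6495 and 18734, so this share is not strictly comparable with those of lower levels. Of all genes compared, 1091 (12.4%) lay beyond the limit of their own level. Every gene called 4-fold higher or lower is among these by definition, since no limit was above 1.26. The limits are used below to judge single genes.

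**Figure D1:**
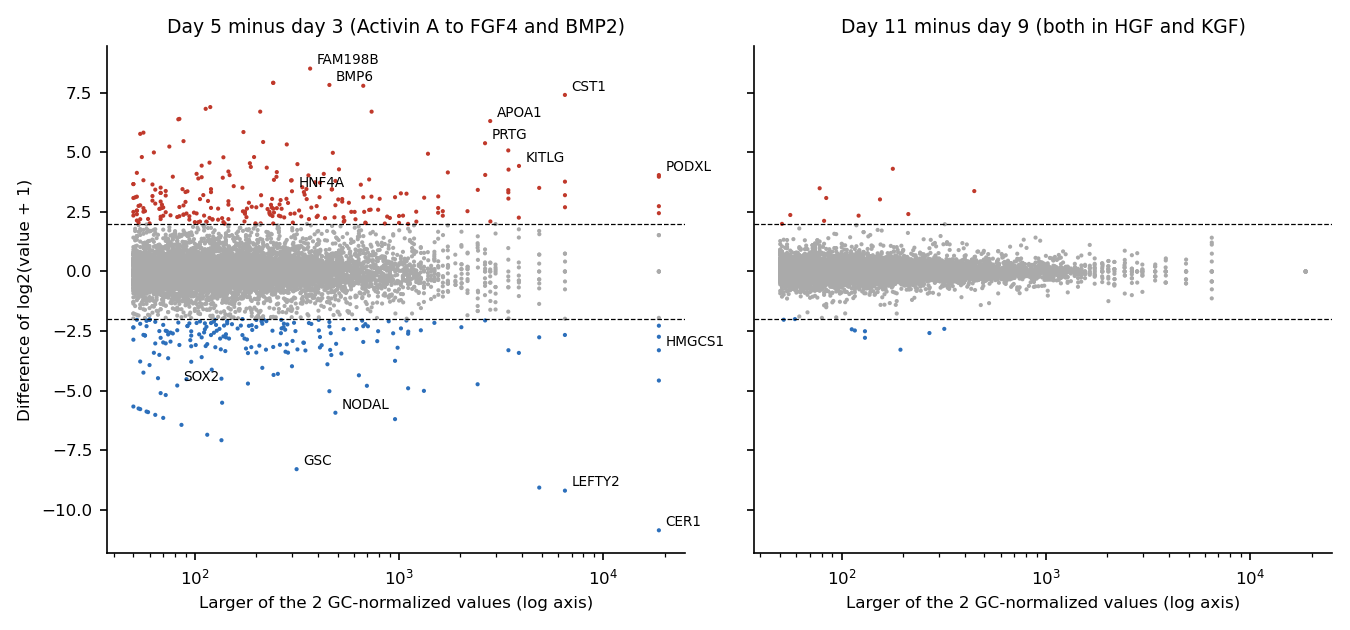
Each point is a gene, placed by the larger of its 2 values (horizontal, log axis) and by its difference of log2(value + 1) (vertical), for day 5 minus day 3 on the left and day 11 minus day 9 on the right. Red points (250 and 9) were at least 4-fold higher and blue points (196 and 9) at least 4-fold lower, and the dashed lines mark a difference of 2.

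Of the 250 genes higher at day 5, 173 had a value below 50 at day 3 and were compared only because of their day 5 value, so these had to be higher. The other 77 were at least 50 on both days. Of the 196 genes lower at day 5, 147 were below 50 there and 49 were not. Exact zeros occurred in 9 of the higher genes at day 3 and in 11 of the lower genes at day 5, and for these no fold is given.

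The day of the highest value was taken for each gene. Of the 250 higher genes, 114 (45.6%) had their highest value of the whole course at day 5, 68 (27.2%) at day 7 and 64 (25.6%) between days 9 and 21. Of the 196 lower genes, 97 (49.5%) had their highest value at day 3 and 82 (41.8%) between days 0 and 2. Among all genes compared, 10.7% were highest at day 5, 7.94% at day 7 and 30.7% between days 9 and 21. A further 10.5% were highest at day 3 and 40.1% between days 0 and 2, close to the 41.8% of the lower genes. The way the genes were selected favours day 5 in the first set and day 3 in the second. The median value of the 250 genes went from 27 at day 3 to 226 at day 5, with 191 at day 7 and 81 at day 21.

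**Figure D2:**
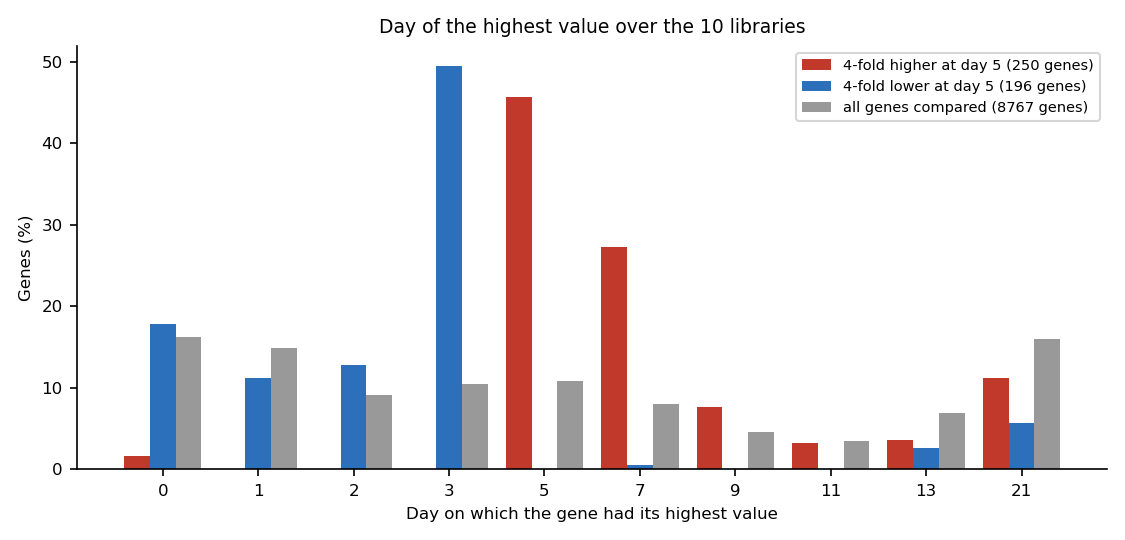
Bars give the percentage of genes (vertical axis, from 0) whose highest value over the 10 libraries fell on each day (horizontal axis) for the 250 genes 4-fold higher at day 5 (red), the 196 genes 4-fold lower (blue) and all 8767 genes compared (grey). The red bars peak at day 5 (45.6%) and the blue bars at day 3 (49.5%).

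The 3 genes with the largest falls were of the Nodal pathway. CER1, LEFTY1 and LEFTY2 encode secreted antagonists of Nodal. CER1 had a value of 6 at day 0, 1638 at day 1 and 18734, the top of the scale, at days 2 and 3, and it was at 9 at day 5 and between 1 and 12 from then on. Its difference of -10.87 was the largest of all genes compared. LEFTY2 was at 6495 at day 3 and 10 at day 5 (-9.21), and LEFTY1 at 4861 and 8 (-9.08). Neither was above 6 from day 7 on. The coding sequences of the 2 LEFTY genes are 97.2% identical over 1101 bases in GENCODE release 29, so the reads of one may have been counted for the other.

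Other genes of the pathway were lower to very different degrees. NODAL, the ligand itself, was at 488 at day 3 and 7 at day 5 (-5.93), and it was back at 104 at day 7. TDGF1, the coreceptor of Nodal, was at 2428 and 768 (-1.66), and GDF3, a related ligand, at 134 and 13 (-3.27). Of the signal transducers, SMAD2 was at 938 and 405 (-1.21) and SMAD3 at 76 and 30 (-1.31), both just beyond the limits for their levels. FST, which binds and blocks Activin, went the other way, from 238 to 669 (1.49).

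The receptors and cofactors differed little. ACVR1B was at 150 and 232 (0.63), ACVR2B at 388 and 308 (-0.33), SMAD4 at 186 and 222 (0.25), and FOXH1, the DNA-binding partner of the SMADs, at 226 and 278 (0.30). Of 24 Nodal and Activin genes listed, 22 were found and 18 compared, with 8 lower and 1 higher by 2-fold or more, where all genes compared gave 7.3% lower and 7.76% higher. The 8 were NODAL, CER1, LEFTY1, LEFTY2, TDGF1, GDF3, SMAD2 and SMAD3, and 6 of them were below 50 at day 5. The median of the 22 found was 0.11, and the same list had a median of 0.11 from day 9 to day 11. The median of all genes compared was -0.02.

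Genes that mark mesendoderm and early DE were lower along with these. GSC, a homeobox gene of the organizer, was at 315 at day 3 and listed at 0 at day 5. MIXL1, a homeobox gene of mesendoderm, was at 696 and 24 (-4.80), and EOMES, a T-box factor needed for endoderm, at 1279 and 230 (-2.47). OTX2 was at 936 and 154 (-2.60), LHX1 at 266 and 50 (-2.39), and CYP26A1, which degrades retinoic acid, at 3434 and 346 (-3.31). These genes had already peaked by day 2 or day 3.

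The core endoderm factors were held over. SOX17 was at 790 at day 3 and 530 at day 5 (-0.57), GATA6 at 642 and 480 (-0.42) and FOXA2 at 190 and 184 (-0.05), all within the limits set by days 9 and 11. SOX17 was then at 72 at day 7, whereas GATA6 was at 506 and FOXA2 at 343. Of the cell-surface markers by which DE is commonly identified, CXCR4 was at 568 and 176 (-1.68) and KIT at 306 and 139 (-1.13). Of the 24 DE genes listed, all were compared. By 2-fold or more, 13 were lower and 5 higher, beside 7.3% and 7.76% of all genes compared. Of the 13, 6 were below 50 at day 5, and of the 5, 4 were below 50 at day 3. The median was -1.41, against -0.39 from day 9 to day 11. The 5 higher members included FOXA1 and GATA3, which are also expressed in later endoderm or other tissues.

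**Figure D3:**
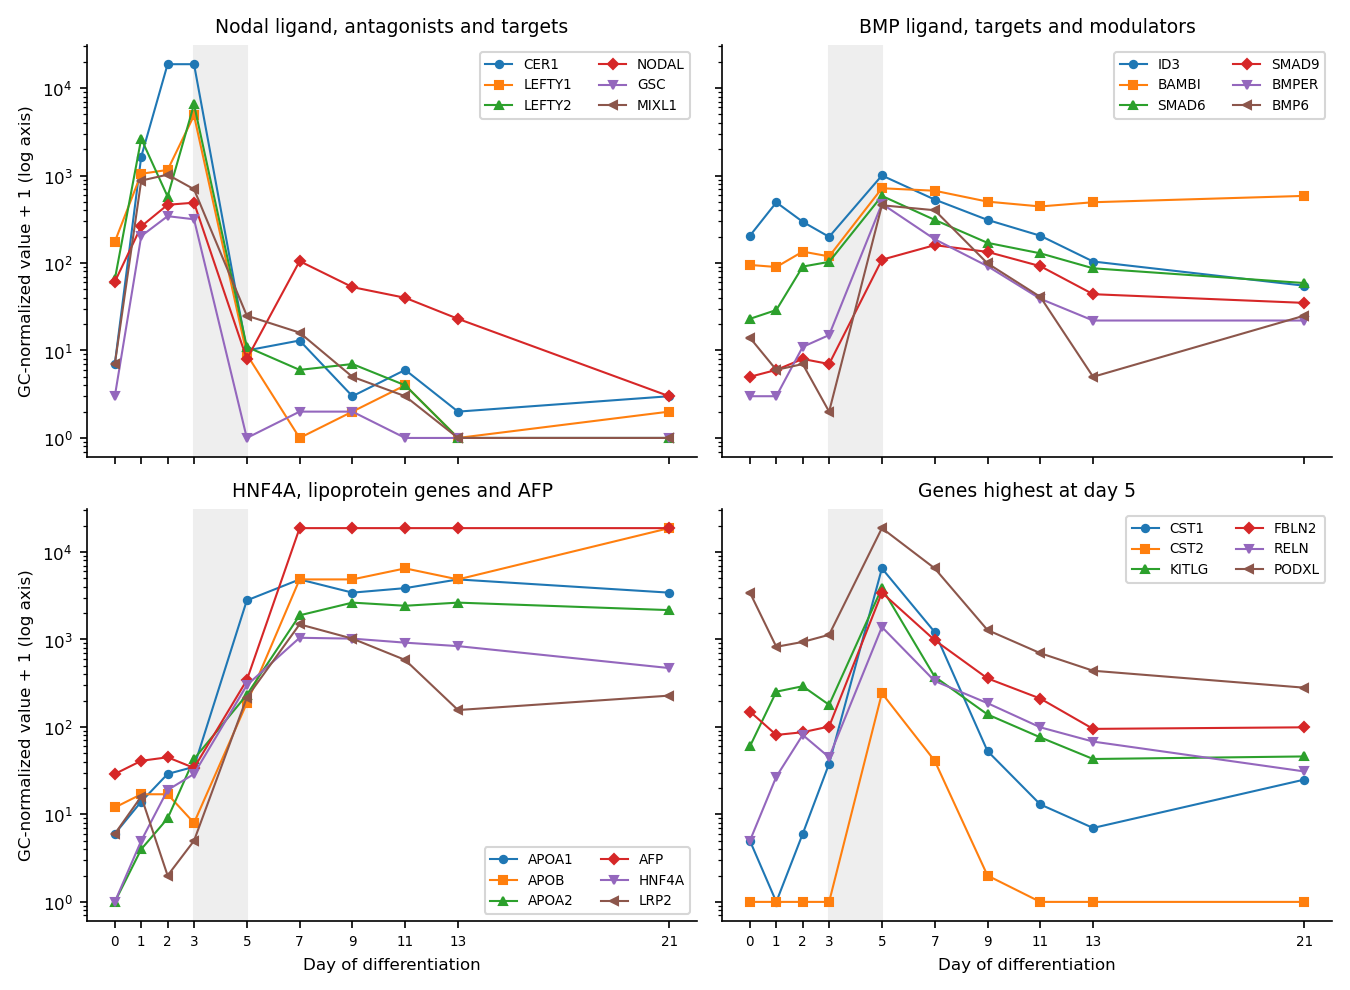
Lines join the GC-normalized values plus 1 (vertical, log axis) of single genes over the 10 days (horizontal), 1 library per day and no error bars, with the interval between day 3 and day 5 shaded. CER1 leaves the top of the scale, 18734, inside the shaded interval, and the other Nodal genes shown are lower at its end than at its start. The BMP and liver genes are higher at its end than at its start. The genes in the last panel, of which all but CST1 and CST2 were picked after their values were seen, are highest at day 5.

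The BMP pathway showed the opposite pattern, with many members higher. The ID genes, inhibitors of DNA binding and direct targets of BMP signalling, were unequal. ID3 was at 198 at day 3 and 1000 at day 5 (2.33), ID2 at 76 and 568 (2.89) and ID4 at 20 and 146 (2.81). ID1 was at 504 and 872 (0.79), a difference that 2.21% of genes of its level reached between days 9 and 11. ID1 had already been at 619 at day 2.

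Feedback inhibitors of the pathway were higher as well. SMAD6, an inhibitory SMAD, was at 102 and 584 (2.51) and was at 310 by day 7. BAMBI, a receptor-like protein that blocks signalling, was at 118 and 714 (2.59), and it stayed between 442 and 669 from day 7 to day 21. BMPER, a secreted BMP-binding protein, was at 14 and 474 (4.98), with 186 at day 7 and 91 at day 9. SMAD7, which inhibits both branches, was at 155 and 165 (0.09).

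Among the ligands, BMP6 had the largest difference. It was at 1 at day 3 and 456 at day 5 (7.84), then 400 at day 7 and 98 at day 9. BMP5 was at 4 and 78 (3.98) and BMP7 at 28 and 190 (2.72), whereas BMP2, the ligand that was also supplied as protein, was at 450 and 684 (0.60). BMP2 had been at 343 at day 2, before the protein was given. The receptors BMPR1A, at 336 and 353 (0.07), and BMPR2, at 310 and 191 (-0.70), were within the limits, and BMPR1B was at 52 and 22 (-1.20), also within the limit for its low level.

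SMAD9, a transducer of the BMP branch, was at 6 and 108 (3.96), and SMAD5 at 305 and 252 (-0.27). The transcription factors MSX2, at 31 and 352 (3.46), and TBX3, at 42 and 470 (3.45), are responsive to BMP in many tissues. TBX3, which is also needed for growth of the liver bud, was at 768 by day 7. Of 28 BMP genes listed, 25 were found and 20 compared. By 2-fold or more, 12 were higher and 1 lower, beside 7.76% and 7.3% of all genes compared. Of the 12, 8 were below 50 at day 3. The median of the 25 found was 2.59, against -0.43 from day 9 to day 11.

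The letters GGCGCC, found in elements that bind SMAD proteins, were looked for on both strands of the promoter windows of RefSeq on GRCh38.p14, which run from 250 bases before a gene's start to 50 bases from it. They were in 8 of the 21 BMP genes matched (38.1%) and in 37.3% of the 9653 genes matched of the whole table. The 2 shares are close to each other, and no sequence is shown.

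FGF receptors and FGF targets did not move as one group. FGFR1 was at 410 at day 3 and 3433 at days 5 and 7 (3.06), FGFR3 at 234 and 744 (1.66) and FGFR4, the main FGF receptor of hepatocytes, at 184 and 557 (1.59). FGFR2 was at 144 and 237 (0.71). All 4 receptors were higher at day 7 than at day 3.

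Common targets of the ERK cascade split. DUSP6, a phosphatase of ERK, was at 314 and 840 (1.42) and was at 140 by day 7, with FGF4 still in the medium. SPRY1 was at 40 and 82 (1.02), SPRY4 at 326 and 363 (0.15) and ETV5 at 138 and 161 (0.22), all within the limits. ETV4 was lower, at 256 and 120 (-1.09), and ETV1 at 122 and 48 (-1.33).

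FGF ligands expressed at day 3 were much lower. FGF17 was at 2426 at day 3 and 90 at day 5 (-4.74), and FGF8 at 72 and 1 (-5.19). Of 23 FGF and ERK genes listed, 22 were found and 20 compared, with 5 higher and 5 lower by 2-fold or more, beside 7.76% and 7.3% of all genes compared. Of the 5 higher, 1 was below 50 at day 3, and of the 5 lower, 3 were below 50 at day 5. The median of the 22 was 0.29, against -0.37 from day 9 to day 11.

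WNT genes were split between secreted modulators and receptors in both directions. FRZB, a secreted WNT antagonist, was at 158 at day 3 and 2643 at day 5 (4.06), and RSPO3, which strengthens WNT signalling, at 20 and 298 (3.83). DKK1, another antagonist, was at 214 and 12 (-4.05). Among the receptors, FZD5 was at 1108 and 36 (-4.91) and FZD8 at 456 and 104 (-2.12), whereas FZD4 was at 176 and 875 (2.31).

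Genes commonly used as readouts of WNT signalling disagreed. AXIN2 was at 128 and 39 (-1.69) and LGR5 at 198 and 49 (-1.99), but SP5 was at 72 and 302 (2.05) and NKD1 at 18 and 102 (2.44). Both SP5 and NKD1 were low again at day 7, at 39 and 16. Of 23 listed, 21 were found and 15 compared, with 6 higher and 7 lower by 2-fold or more, beside 7.76% and 7.3% of all genes compared. Of the 6, 3 were below 50 at day 3, and of the 7, 6 were below 50 at day 5. The median over those found was 0, against -0.23 from day 9 to day 11.

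Liver genes entered at very different levels. APOA1, the main protein of high-density lipoprotein, is listed as ENSG00000118137 on chromosome 11 from 116706467 to 116708302. It had values of 5, 13, 28 and 34 at days 0, 1, 2 and 3, then 2796 at day 5 and 4855 at day 7, and between 3428 and 4855 afterwards. Its difference of 6.32 placed it among the top levels of the scale 2 days after the switch. No gene of the same level reached this difference from day 9 to day 11. Intervals are printed as the deposited table gives them, and their genome build is not named there.

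Other lipoprotein genes that were at least 2-fold higher had lower values than APOA1 at day 5. APOB, the core protein of low-density lipoprotein, was at 7 at day 3, 186 at day 5 (4.55) and 4856 at day 7. APOA2 was at 42, 232 (2.44) and 1886 on the same days. APOA4 was listed at 0 from day 0 to day 3, was at 113 at day 5 and 82 at day 7, and reached 4855 at day 21. LRP2, a large endocytic receptor that takes up lipoproteins, was at 4, 216 (5.44) and 1488.

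APOE, at 1733 and 3428 (0.98), was already high in embryonic stem cells, at 1129 at day 0. Of 20 apolipoprotein and lipoprotein assembly genes listed, 14 were found and 8 compared. By 2-fold or more, 5 were higher and none lower, beside 7.76% and 7.3% of all genes compared. All 5 were below 50 at day 3. The median of the 14 found was 1.90, against 0.18 from day 9 to day 11. Of the 5 higher genes, APOA1 had by far the highest value at day 5, and APOA2, at 232, came next.

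HNF4A, a nuclear receptor at the centre of the liver programme, is listed as ENSG00000101076 on chromosome 20 from 42984340 to 43058311. It was at 28 at day 3 and 299 at day 5 (3.37), which 0.0495% of genes of its level reached from day 9 to day 11. FOXA1, a pioneer factor of endoderm, was at 4 and 62 (3.66). HNF4A was highest at day 7, at 1044.

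HHEX, a homeobox gene of the liver bud, was lower at day 5. It was at 139 at day 3, 28 at day 5 (-2.27) and 79 at day 7. GATA4 was at 268 and 530 (0.98) and FOXA3 at 72 and 122 (0.75), both within the limits. Of 22 liver transcription factors listed, 16 were found and 10 compared. By 2-fold or more, 4 were higher, all below 50 at day 3, and 1 lower, beside 7.76% and 7.3% of all genes compared. The median of the 16 was 0.87, against -0.06 from day 9 to day 11. GATA5, a factor of endoderm and heart outside this list, had 0 on days 1, 2 and 3 and 83 on day 5.

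Plasma proteins were mostly still low. AFP, the fetal counterpart of albumin, was at 33 at day 3, 342 at day 5 (3.33) and at the top of the scale from day 7 on. ALB was at 24 and 62 (1.33) and reached 4866 only at day 21. C5, a complement protein, was at 80 and 209 (1.37), and C3 was lower, at 54 and 11 (-2.20).

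Of 27 plasma proteins listed, 21 were found and only 7 reached 50 on either day. By 2-fold or more, 3 were higher and 1 lower, beside 7.76% and 7.3% of all genes compared. Of the 3, 2 were below 50 at day 3, and the lower gene was below 50 at day 5. Over the 21 found, 19 were higher at day 5 and 8 were listed at 0 at day 3, with a median of 2.00 against 0.12 from day 9 to day 11. The median of all genes measured was 0 from day 3 to day 5. Of the 21, 14 were below 50 on both days, and the median of the 7 compared was 0.68. TTR, a carrier of thyroid hormone, went from 0 at day 3 to 26 at day 5 and to 3430 at day 7. The markers of the day 5 label were thus uneven. HNF4A, TBX3, AFP and APOA1 were present at 299 or more, TTR and ALB were at 62 or less, and the endoderm marker SOX17 was at 530.

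Promoter windows of the lipoprotein, plasma protein and most increased genes were searched on both strands for short motifs of endoderm and liver factors. The plasma protein and BMP sets were added to the search after their values were seen. The letters AGATAA, bound by GATA factors, were in 4 of the 8 apolipoprotein and lipoprotein genes that could be matched (50%), namely APOA2, APOE, MTTP and CUBN, and in 8.14% of the 9653 genes matched of the whole table. APOA1 and APOB had no window to search. Of the 4, only APOA2 was compared and at least 2-fold higher. APOE was within the limit for its level (0.98), and MTTP and CUBN were below the filter. The same letters were in 2 of the 9 matched genes among the 12 largest rises, FAM198B and SYTL5, and in 3 of the 17 plasma protein genes matched (17.6%). Of the GATA genes compared, GATA4 was at 268 and 530, GATA5 at 0 and 83 and GATA3 at 28 and 388. GATA6 went the other way, at 642 and 480. The part of GATA factors in these differences was not tested. The windows of APOA2 at chr1:161223579-161223878 (minus strand), MTTP at chr4:99574574-99574873 (plus) and FAM198B at chr4:158172976-158173275 (minus) are shown as examples of genes with these letters, picked after their values were seen. The letters or their reverse complement are in capitals, 5′ to 3′ on the strand of the gene, from RefSeq on GRCh38.p14.
APOA2: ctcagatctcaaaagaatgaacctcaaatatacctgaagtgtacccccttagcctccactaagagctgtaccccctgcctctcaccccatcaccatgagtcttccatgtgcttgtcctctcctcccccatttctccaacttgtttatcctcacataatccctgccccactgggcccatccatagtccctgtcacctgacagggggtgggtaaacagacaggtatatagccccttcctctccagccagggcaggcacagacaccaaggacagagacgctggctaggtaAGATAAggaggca
MTTP: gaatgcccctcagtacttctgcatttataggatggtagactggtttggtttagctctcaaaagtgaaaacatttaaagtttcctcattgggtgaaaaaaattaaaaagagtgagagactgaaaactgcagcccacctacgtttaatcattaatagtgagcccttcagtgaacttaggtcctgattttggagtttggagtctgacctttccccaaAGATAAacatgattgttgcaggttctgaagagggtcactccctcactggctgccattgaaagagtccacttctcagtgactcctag
FAM198B: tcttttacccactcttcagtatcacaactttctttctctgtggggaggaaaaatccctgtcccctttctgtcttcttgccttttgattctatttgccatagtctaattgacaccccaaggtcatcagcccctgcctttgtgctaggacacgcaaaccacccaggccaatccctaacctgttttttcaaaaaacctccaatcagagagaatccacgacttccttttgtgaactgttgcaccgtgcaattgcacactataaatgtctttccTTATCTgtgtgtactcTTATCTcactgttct

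The match began 36 bases before the start of MTTP and past the start in the other windows. MTTP, which loads lipid onto APOB, was at 1 at day 3, 47 at day 5 and 2972 at day 7, so it was below the filter at this step. HABP2, a plasma protease among the 12 largest rises, was listed at 0 at day 3, with 119 at day 5 and 568 at day 7.

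The letters CAAAGTCCA, bound by HNF4A, were in 2 of the 17 plasma protein genes matched (11.8%), AHSG and F10, in none of the 8 apolipoprotein and lipoprotein genes, and in 0.477% of the table. The letters GTTAATNAT, bound by HNF1 factors, with N for any base, were in 4 of the 17 (23.5%), AFP, ALB, FGA and C5. They were in none of the 8, in 1 of the 9 matched genes of the largest rises, HABP2, and in 0.839% of the table. The letters TGTTTAC, bound by FOX factors, were in 1 of the 8, APOA2, and in 3.70% of the table. They were in none of the 17 and in 2 of the 9, HABP2 and SYTL5. No match of these or of GGCGCC overlapped the capitals. A match of letters is a description of the sequence and not a bound site.

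Cystatins, inhibitors of cysteine proteases, gave some of the largest differences. CST1 is listed as ENSG00000170373 on chromosome 20 from 23728190 to 23731574. It had values of 4, 0, 5 and 37 at days 0, 1, 2 and 3, then 6493 at day 5, 1214 at day 7, 52 at day 9 and between 6 and 24 from day 11 to day 21. Its difference was 7.42. CST2 was listed at 0 from day 0 to day 3, reached 242 at day 5, and then had 40 at day 7, 1 at day 9 and 0 from day 11 on.

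Both genes were high on the same days. Their coding sequences are 91.3% identical, with 389 of 426 bases shared and 87 bases in the longest shared run, so some reads of CST2 may belong to CST1.

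CST3, the cystatin made by most tissues, was at 82 and 733 (3.14) and stayed between 508 and 918 afterwards. CSTB, which acts inside the cell, was at 198 and 137 (-0.53). Of 10 cystatins listed, 4 were found, and 3 of these 4 were higher by 2-fold or more, beside 7.76% of all genes compared. CST1 and CST2, 2 of the 3, were below 50 at day 3. CST1 and CST2 were transient and CST3 was not.

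The remaining genes among the 12 largest rises had varied functions and were mostly near absent before. FAM198B, a Golgi protein, was at 0 at day 3 and 367 at day 5, 253 at day 7 and 106 at day 9. PITX1, a homeobox gene of hindlimb and pituitary, was at 0 up to day 3, 242 at day 5 and 173 at day 7. SYTL5, a vesicle transport protein, was at 2 and 668 (7.80) and highest at day 7, at 890. DIO2, which activates thyroid hormone, was at 1 and 209 (6.71) and at 6 by day 9.

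PAMR1 was at 6 and 734 (6.71) and highest at day 9, at 804. ISY1-RAB43, a read-through of neighbouring genes, had 0 on days 1, 2 and 3 and 84 on day 5, but 51 on day 0. For a gene that overlaps others, such zeros may be failed estimates.

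Among the 12 largest falls outside the Nodal pathway, MFAP4, a protein of elastic fibres, was at 956 and 12 (-6.20) and came back to 838 at day 21. CD48, an immune surface protein, was at 135 at day 3 and listed at 0 at day 5, as were MYCT1 (86 at day 3), EYA2 (70) and CLGN (64). GSTT2, at 115 and 0, has a near-identical copy between which reads can be split. PIGY was at 59 and 0, but it had 0 on days 0 and 2 too and 76 on day 7, so its zeros are uncertain.

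Genes of the stem cell state were lower at day 5, at unequal rates. SOX2 was at 82 at day 3 and 2 at day 5 (-4.79), NANOG at 286 and 26 (-3.41) and MYC at 121 and 6 (-4.12). POU5F1 was at 1280 and 440 (-1.54), still at 88 at day 7. L1TD1, an RNA-binding protein of pluripotent cells, was at 1087 and 260 (-2.06).

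LIN28A, which blocks maturation of let-7 microRNAs, was at 2971 and 4862 (0.71), the highest value of its course. Of 21 pluripotency genes listed, 18 were found and 16 compared. By 2-fold or more, 10 were lower and none higher, beside 7.3% and 7.76% of all genes compared. Of the 10, 4 were below 50 at day 5. The median of the 18 was -1.60, against -0.24 from day 9 to day 11.

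Keratins of simple epithelia differed unequally. KRT18 was at 2796 at day 3 and at the top of the scale, 18734, at day 5 (2.74), its only day there. KRT8, its partner, was at 3864 and 6498 (0.75), within the limit for its level, and KRT19 at 936 and 2020 (1.11). EPCAM, an epithelial adhesion protein, was at 642 and 1279 (0.99), within the limit for its level. CDH1 was at 342 and 444 (0.38) and CDH2 at the same level, 3431, on both days, which on this scale means an equal rank group and not an equal amount of RNA.

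FN1, an extracellular matrix protein commonly counted as mesenchymal, was at 3428 and 18734 (2.45). VIM was at 2168 and 2434 (0.17). Of 23 epithelial and mesenchymal genes listed, 19 were found and 14 compared. By 2-fold or more, 3 were higher and 1 lower, beside 7.76% and 7.3% of all genes compared. The median of the 19 was 0.38, against 0 from day 9 to day 11.

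Markers of other cell types that the culture could hold were counted beside these results. The 8 of 16 trophoblast and amnion markers found summed to 79 at day 3 and 769 at day 5. The 3 compared were all higher by 2-fold or more, beside 7.76% of all genes compared. All 3 were below 50 at day 3 and so had to be higher, among them GATA3, at 28 and 388 (3.75), and IGFBP3, at 29 and 172 (2.53). The remaining 8 of the list, which include the defining hormone gene CGA, were not analysed here. The 12 of 20 mesoderm and heart markers found summed to 341 and 715. By 2-fold or more, 4 of 6 compared were higher and none lower, beside 7.76% and 7.3% of all genes compared. Of the 4, 3 were below 50 at day 3 and so had to be higher, among them ISL1, at 3 and 50 (3.67). MYL4 was at 50 and 258 (2.34), ACTC1 at 94 and 69 (-0.44) and MYL7 at 169 and 162 (-0.06). Some markers, such as ISL1, GATA3 and BMP5, stand in more than 1 list and are also known in endoderm or as BMP targets.

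Endothelial markers, of which 10 of 14 were found, summed to 913 and 662. By 2-fold or more, 2 of 5 compared were lower and 1 higher, beside 7.3% and 7.76% of all genes compared. KDR was at 240 and 42 (-2.49) and FLT1 at 111 and 18 (-2.56), whereas TEK was at 88 and 203, the 1 higher gene, and VWF at 309 and 299 (-0.05). The 13 of 14 stromal markers found summed to 3017 and 3047. Among stromal genes COL3A1 was at 21 and 111 (2.35) and THY1 at 147 and 20 (-2.82). The part of such cells in the differences of the BMP and liver genes was not tested.

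Genes that mark regions of the gut tube were few. IHH, a hedgehog ligand of endoderm, was at 4 at day 3 and 118 at day 5 (4.57), and PROM1 at 137 and 364 (1.40). Of 23 listed, 7 were found and 4 compared, with 3 higher by 2-fold or more, 2 of them below 50 at day 3, and with SOX2, also a foregut gene, lower and below 50 at day 5. Of the 17 retinoid genes listed, 13 were found and 10 compared. By 2-fold or more, 2 were higher, both below 50 at day 3, and 3 lower, 1 of them below 50 at day 5. CYP26A1 and the binding protein CRABP1, at 203 and 52 (-1.94), were among the lower. For both lists, the shares of all genes compared were 7.76% higher and 7.3% lower.

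Proliferation genes showed little difference as a group. All 23 listed were compared, with 3 higher by 2-fold or more and none lower, beside 7.76% and 7.3% of all genes compared. The median was -0.04, against 0.40 from day 9 to day 11, so that pair of days itself differed more for this list. MKI67 was at 424 and 400 (-0.08) and CCNB1 at 282 and 228 (-0.31). The 3 higher genes were CDKN1C, an inhibitor of the cell cycle, at 57 and 372 (2.69), CDKN1A, another inhibitor, at 90 and 300 (1.73), and CCND1, a cyclin of the early cell cycle, at 159 and 402 (1.33). CDKN1C was higher still at day 7, at 1045, whereas CDKN1A was at 58.

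Insulin entered the medium at this step, and 25 sterol and insulin-responsive genes were therefore listed. Of these, 23 were found and 21 compared. By 2-fold or more, 3 were lower and 1 higher, beside 7.3% and 7.76% of all genes compared. To any degree, 16 of the 21 were lower, and the share of all genes lower to any degree was not counted. The median of those found was -0.47, against 0.17 from day 9 to day 11 and -0.02 over all genes compared from day 3 to day 5. HMGCS1, an early enzyme of cholesterol synthesis, was at the top of the scale at days 2 and 3 and at 1890 at day 5 (-3.31). FDPS was at 958 and 447 (-1.10), and IDI1, at 518 and 256 (-1.01), was within the limit for its level. Both are also of this synthesis. The higher gene was IRS1, a substrate of the insulin receptor, at 64 and 142 (1.14).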

How the data were processed

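RNA of H1 cells was sequenced on 10 days of hepatic differentiation, 1 library per day. Per the labels and the methods of the study, the authors aligned reads with Bowtie2 (2.2.0), estimated gene values with RSEM (1.2.17), and then corrected these for GC content in EDASeq. The submitters' processing notes name the builds hg19 and mm10 without a role, and the methods name an Ensembl transcriptome of release 76 with the build mm10, although the gene identifiers are human. The authors deposited 1 table of whole numbers, treated here as a score because all libraries share 1 distribution of values. The scores show no depth, and no count test was used.

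Day 5 was set against day 3 by the difference of log2(value + 1), which shrinks the differences of low genes, for genes whose larger value was at least 50. Limits were the 99th percentile of the size of the day 11 minus day 9 difference within 5 bands of the larger value. With 1 library a side there is no test. Named genes were APOA1, HNF4A and CST1, the 12 largest rises, the 12 largest falls and compared members of 20 gene lists, with markers of the labelled cell types such as TTR, and others are marked as chosen after their values were seen. The comparison, its members and the lists were chosen with earlier results of these data known. Promoter windows were matched by gene symbol to RefSeq (GRCh38.p14), and coding sequences were taken from GENCODE release 29. The values of some single genes and sequences are left out. Alternatives were other pseudocounts, filters, scaling and pairs of days. Code was tested on simulated data. Python 3.11.15, numpy 2.4.6, pandas 2.3.3, matplotlib 3.10.9 and Biopython 1.88 were used.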

Additional observations from a re-analysis of the deposited data

How the results depend on the processing

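Without replicates these values have no error, and the depth of the libraries is unknown. No paired analysis was possible because each day has 1 library. With a larger value of at least 200 in place of 50, 132 genes were 4-fold higher and 89 lower, and 298 were 2-fold higher and 265 lower. With no filter the counts were 446, 347, 1150 and 1066. With a pseudocount of 0.1 the list medians moved to 2.47 for apolipoproteins, 3.37 for plasma proteins and 4.01 for gut tube factors. With a pseudocount of 5 they moved to 1.08 for apolipoproteins, 1.21 for plasma proteins, 4.36 for cystatins, 1.23 for mesoderm and heart and 2.58 for trophoblast and amnion. The number of 4-fold differences between libraries that share factors was 18 for days 9 and 11, 27 for days 11 and 13 (day 13 is labelled Oncostatin M but ends the HGF and KGF step of the protocol), 314 for days 5 and 7 and 121 for days 1 and 2. Of 330 single genes, 61 moved by more than 0.36, the SD of the day 11 minus day 9 differences, with a pseudocount of 0.1, 89 with 5 and 0 with scaling by the median of ratios, and 0 changed direction.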

Other observations

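Genes outside the lists, chosen after their values were seen, included several of the highest genes of day 5. PODXL, a sialylated surface protein, was at 1130 at day 3, 18734 at day 5 and 6498 at day 7. KITLG, the ligand of the receptor KIT, was at 178, 3868 and 374 on these days, FBLN2, a matrix protein, at 100, 3428 and 980, and RELN, a secreted glycoprotein, at 44, 1386 and 334. WLS, which carries WNT proteins to the cell surface, was at 96, 1734 and 266, and CRHBP, which binds corticotropin-releasing hormone, at 6, 282 and 26. All 6 had their highest value at day 5.

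Other such genes stayed high. FLRT3, a membrane protein linked to FGF signalling, went from 176 at day 3 to 3438 at day 5 and to 3868 at day 7, and PRTG was at 62, 2638 and 3863. Among the genes that were lower, COL5A2, a fibrillar collagen, was at the top of the scale at days 2 and 3, at 782 at day 5 and back at 2972 at day 13. The neuropeptide GAL was at 1324 and 40.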
